A study of Mus musculus with 43 samples.

Results

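Cytochrome P450 genes, whose symbols start with Cyp and a family number, formed a set of 80 targets, beside 1998 other genes, of a metabolic CRISPR knockout screen in OT-I CD8+ T cells. They were chosen by symbol alone, with the sterol demethylase gene Cyp51 left out, and each was targeted by 5 sgRNAs, so that 400 of the 10640 sgRNAs of the library belonged to them. The library also held 250 nontargeting sgRNAs, which served as the reference for a guide without a target. The question was how far an edit in these genes moved a T cell's abundance over 7 days in the mouse, compared with a nontargeting sgRNA, and which single Cyp genes stood apart.

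P450 enzymes are haem proteins that use molecular oxygen and electrons from NADPH to oxidise lipophilic substrates. The Cyp1, Cyp2 and Cyp3 families act mainly on drugs and other foreign compounds in liver, the Cyp4 family hydroxylates fatty acids and eicosanoids, and the mitochondrial and higher-numbered families make or break down steroid hormones, bile acids, oxysterols, vitamin D and retinoic acid. Most of them are liver, kidney or steroidogenic tissue enzymes, and few have a known use in T cells. The series holds sgRNA abundance in genomic DNA and no transcript measurement, so whether a given Cyp gene was silent in these cells was not measured.

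All donor T cells carried the OT-I receptor, which recognises ovalbumin, and a knocked-in Cas9, and all carried a lentiviral sgRNA vector with a CD90.1 reporter by which they were sorted. Their hosts were Cas9-expressing mice with orthotopic KPC_OVA pancreatic tumours, a ductal adenocarcinoma line made to express ovalbumin, and they received anti-PD-1 or control IgG from the day of transfer. T0 is the transduced population on the day of transfer (3 libraries). The other groups were sorted at day 7 from primary tumour, lung, liver, peritoneal metastases, spleen, draining lymph nodes and nondraining lymph nodes, under either treatment. There were 3 libraries in each, except liver under IgG (2), peritoneal metastases under IgG (2) and liver under anti-PD-1 (1). The labels give neither the age of the animals nor how many mice gave a library. The second anti-PD-1 library of peritoneal metastases has a title of that tissue but a tissue label of spleen. It was used by its title. Without it, the 6 lowest and 6 highest Cyp genes and the 5 lowest and 5 highest sgRNAs named further on were the same ones, and no Cyp gene's mean over groups moved by more than 0.0838 on the log2 scale. Of the 8 called gene-group pairs described further on, 7 remained without it and 1 did not (Cyp2a5 in liver under IgG, limma adjusted p = 0.0501). Libraries that are counted out of 26 are then counted out of 25.

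The sequences of the screen's own sgRNAs were not used here. The study's later CROP-seq library, which joins sgRNA detection to single-cell transcriptomes, targeted 4 Cyp genes (Cyp2a12, Cyp2j13, Cyp4a30b and Cyp4a32), and these sgRNAs show what a P450 guide looks like. Each of its 12 Cyp sgRNAs had 1 exact match with an NGG on the assembled chromosomes of GRCm38 (RefSeq), 10 within a coding exon and 2 at a coding exon boundary. Of these, 6 are shown 5′ to 3′, with the protospacer in lower case and the adjacent NGG of the genome in capitals. They are the 3 against Cyp2a12, the gene with the highest mean among those 4, and the first against each of the others.
Cyp2a12 sgRNA 1, chr7:27030793-27030812, minus strand, coding exon: catgccgaaatctctcagtgTGG
Cyp2a12 sgRNA 2, chr7:27029663-27029682, minus strand, coding exon: gtccactgaactcctcagcgTGG
Cyp2a12 sgRNA 3, chr7:27034117-27034136, minus strand, coding exon, also within the annotated Gm51444: caggaagccatatcgtagtgTGG
Cyp2j13 sgRNA 1, chr4:96068178-96068197, plus strand, coding exon boundary: gcttacatggaccattagggAGG
Cyp4a30b sgRNA 1, chr4:115454375-115454394, plus strand, coding exon: tcccatccacctatgtacggTGG
Cyp4a32 sgRNA 1, chr4:115610509-115610528, minus strand, coding exon: atgaaagatatttctcacacGGG

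Many P450 genes lie in tandem clusters of near-identical copies, so a 20-base site in one gene is often found in its neighbours too. The next 4 sites were read from the GRCm38 coding exons of single genes. Each is the site of its gene with the most matches, or the leftmost of these, so it shows the most that an sgRNA could meet. Averaged over all sites of a gene, the matches per site were 1 in Cyp39a1, 3.16 in Cyp2d10, 3.04 in Cyp2c40 and 2.05 in Cyp4a31. The first lies in the oxysterol hydroxylase gene Cyp39a1 and occurs once in the genome. The others occur several times, and 2 of them lie both in a gene with one of the lowest and in a gene with one of the highest mean changes described further on.
Cyp39a1, chr17:43667632-43667651, plus strand, 1 match: accaatagcaatcgccgttcTGG
Cyp2d10, chr15:82403202-82403221, plus strand, 11 matches, all in Cyp2d genes or pseudogenes: gagaatggcatgaaggcctcAGG
Cyp2c40, chr19:39803870-39803889, plus strand, 7 matches, in Cyp2c40, Cyp2c39, Cyp2c65, Cyp2c66, Cyp2c67, Cyp2c68 and Cyp2c69: atggagcagatgacattgcaGGG
Cyp4a31, chr4:115565123-115565142, minus strand, 5 matches, in Cyp4a31, Cyp4a10, Cyp4a28-ps, Cyp4a29 and Cyp4a32: gaatcactttcatgtagtcaGGG

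Per sgRNA, the measurement was log2(deposited value + 1) minus the mean of the 250 nontargeting sgRNAs of the same library, and a gene's value was the mean of its 5 sgRNAs. A change is a group mean minus the T0 mean on that scale. The read counts from which these values were made were not used here, so the depth is unknown and the number of libraries limits the precision. The summed signal per library ran from 1788300 to 4228882. An sgRNA was taken to be at its floor in a library where it had the lowest of its own values among all libraries of that replicate number and at least 1 other of these libraries held the same value (relative tolerance 1e-09). Floors thus differ between sgRNAs. For Cyp sgRNAs the share at the floor was 0% in all T0 libraries, had a median of 2.25% over the 26 libraries outside lymph nodes and reached 37.75% in the first IgG library of lung. In the 12 lymph node libraries it ran from 42.25% to 90.75%, so these were fitted apart from the other organs.

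At T0 the Cyp sgRNAs were as abundant as the rest of the library and less spread than nontargeting sgRNAs, with an SD of 0.78 to 0.82 against 1.08 to 1.11 on the log2 scale. Their median deposited value was 321, 315 and 228 in the 3 T0 libraries, beside 297, 295 and 194 for nontargeting sgRNAs and 332, 320 and 231 for all other targeting sgRNAs. The Cyp mean was thus above the nontargeting mean before transfer, by 0.22 ± 0.02 on the log2 scale (SD, n = 3), with 0.20 as the lowest and 0.25 as the highest of the 3 libraries. All changes below are measured from that starting point.

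At day 7, the mean of the Cyp sgRNAs had moved little against nontargeting sgRNAs, and far less than the mean of the rest of the library. In primary tumour the Cyp mean changed by -0.11 ± 0.04 (SD, n = 3) under IgG, with libraries at -0.15, -0.09 and -0.08. Under anti-PD-1 it was -0.10 ± 0.06 (SD, n = 3), with libraries at -0.13, -0.14 and -0.03. These 6 libraries lay within 0.12 of each other, and all were below the lowest T0 library.

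In lung the libraries were further apart. The change was -0.14 ± 0.10 (SD, n = 3) under IgG, with libraries at -0.23, -0.02 and -0.16. Under anti-PD-1 it was -0.11 ± 0.39 (SD, n = 3), with libraries at 0.05, -0.55 and 0.18. The second of these decided its sign, and the mean was 0.12 without it. In that library 22% of Cyp and 19.2% of nontargeting sgRNAs were at their floor, and the part of this in the result was not tested.

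Liver gave -0.25 and -0.14 in its 2 IgG libraries and 0.05 in its only anti-PD-1 library. Peritoneal metastases gave -0.22 and -0.35 in the 2 IgG libraries, the lowest group mean of all at -0.29 ± 0.09 (SD, n = 2). Under anti-PD-1 the change there was -0.11 ± 0.08 (SD, n = 3), and -0.09 without the library with 2 tissue labels, which also left the count of called Cyp genes there at 0. Spleen under IgG was nearest to T0 among the groups with 3 libraries outside lymph nodes, at -0.06 ± 0.04 (SD, n = 3), with libraries at -0.10, -0.05 and -0.03. Spleen under anti-PD-1 was lower, at -0.24 ± 0.06 (SD, n = 3), with libraries at -0.17, -0.25 and -0.30 that did not overlap those under IgG.

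Of the 26 libraries outside lymph nodes, 23 lay below every T0 library and 3 above, and without the library with 2 tissue labels these were 22 and 3 of 25. The 3 above were the anti-PD-1 replicates 1 and 3 of lung and the anti-PD-1 library of liver. The 3 T0 libraries spanned only 0.04, so the sign carries less than the size. The mean of all other targeting sgRNAs changed by -0.44 to -0.80 in the same groups, and in 26 of 26 libraries this change was lower than that of the Cyp mean. The medians were closer together. Averaged over the 10 groups, the median was -0.16 for other targeting sgRNAs and 0.00 for Cyp sgRNAs. Below -2 were 14.8% of the other targeting sgRNAs and 2% of the Cyp sgRNAs. The 23 Ugt and Sult genes, which encode glucuronosyltransferases and sulfotransferases that act after P450 enzymes on many of the same compounds, changed by -0.51 to 0.12. The 20 ribosomal protein genes in the library, a set that every dividing cell needs, changed by -4.74 to -5.61. No test is given for these means over chosen sets.

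**Figure D1:**
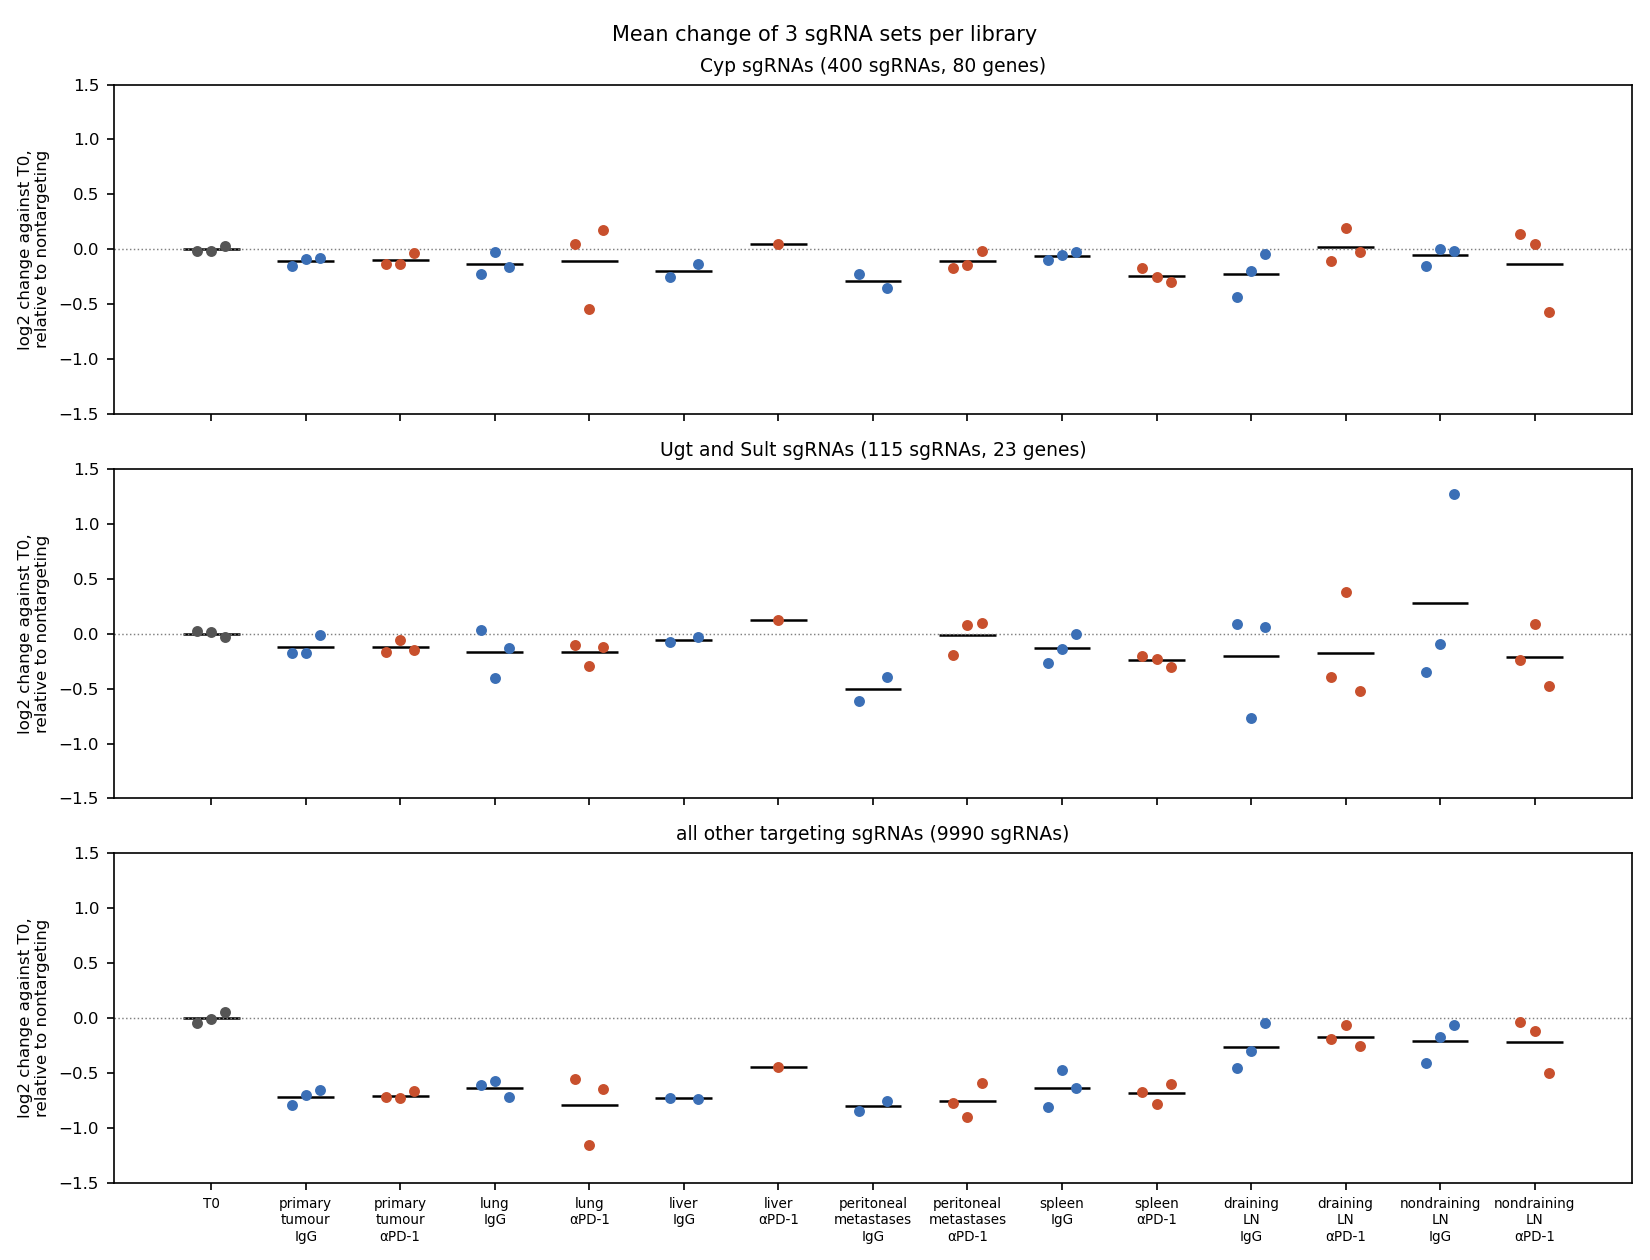
Mean log2 change against T0, relative to nontargeting sgRNAs, in each library (points) for Cyp, Ugt and Sult, and all other targeting sgRNAs. Bars are group means, with T0 in grey, IgG in blue and anti-PD-1 (αPD-1) in orange. Cyp group means outside lymph nodes ran from -0.29 to 0.05, while those of the other targeting sgRNAs ran from -0.80 to -0.44.

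Single guides were lost about as often for Cyp as for nontargeting sgRNAs. The share of sgRNAs at their floor was smaller for Cyp than for nontargeting sgRNAs in 21 of 26 libraries outside lymph nodes. Cyp sgRNAs were also less often low at T0. In the T0 libraries 1%, 0.25% and 6.25% of Cyp sgRNAs had a value under 100, beside 2.8%, 2.4% and 7.6% of nontargeting sgRNAs. The part of this starting point in the floor shares was not tested. Tested sgRNA by sgRNA with limma and Benjamini-Hochberg adjustment over all 10640 sgRNAs in each group, 16 of 4000 Cyp sgRNA-group pairs were depleted at an adjusted p of 0.05, or 0.4%. The nontargeting sgRNAs had 10 of 2500 pairs depleted, also 0.4%, against 4.79% of the pairs of all sgRNAs. Enriched pairs numbered 2 of 4000 for Cyp (0.05%; an sgRNA against Cyp39a1 and one against Cyp3a16, both in lung under IgG) and 2 of 2500 for nontargeting sgRNAs (0.08%), against 0.0949% of all pairs. When T0 and a single group entered each fit, the depleted shares over the 9 groups with more than 1 library were 1.14% for Cyp, 0.933% for nontargeting and 7.63% for all sgRNAs.

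Averaged over the 10 groups, with each group weighted equally, the change of a Cyp sgRNA had a median of 0.00 and an SD of 0.74, and that of a nontargeting sgRNA a median of 0.08 and an SD of 0.69. The lower and upper quartiles were -0.51 and 0.34 for Cyp and -0.43 and 0.52 for nontargeting sgRNAs. Below -1 there were 12% of Cyp and 10% of nontargeting sgRNAs, and below -2 were 8 of 400 Cyp sgRNAs (2%) and 0 of 250 nontargeting sgRNAs, whose lowest was -1.85, a difference that was not tested. Among all other targeting sgRNAs 14.8% were below -2.

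**Figure D2:**
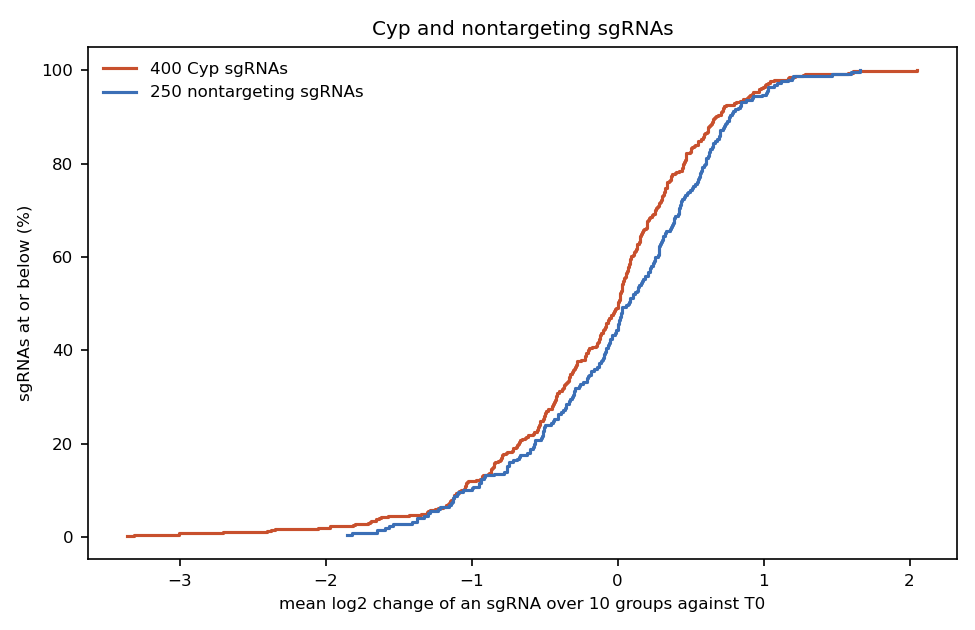
Cumulative share of sgRNAs (%) at or below a given mean log2 change over the 10 groups outside lymph nodes, for 400 Cyp sgRNAs (orange) and 250 nontargeting sgRNAs (blue). The curves run close together, with medians of 0.00 and 0.08, and the Cyp curve has a tail of 8 sgRNAs below -2 that the nontargeting curve lacks.

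The 5 lowest Cyp sgRNAs belonged to Cyp2d9 (-3.36), Cyp2c40 (-3.31), Cyp2d10 (-3.00), Cyp2b9 (-2.70) and Cyp4a31 (-2.40), members of families that hydroxylate drugs and fatty acids. The Cyp2d9 sgRNA ran from -0.38 to 0.65 at T0, on the scale relative to nontargeting sgRNAs. Afterwards it ran from -6.53 to 1.40, with a median of -2.20, and was below every T0 library in 21 of 26. It was depleted in liver under IgG (log2 change -6.33 ± 1.61 (SE), limma adjusted p = 0.0210) and in spleen under anti-PD-1 (-5.29 ± 1.44 (SE), limma adjusted p = 0.0319). The 4 other sgRNAs of Cyp2d9 averaged between -0.07 and 0.62, so the loss was that of a single guide.

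The 5 highest belonged to Cyp4a30b (2.05), Cyp4a12a (1.62), Cyp3a44 (1.58), Cyp2c29 (1.29) and Cyp2a12 (1.27), and none of these 5 was called enriched in any group by limma. The Cyp4a30b sgRNA ran from -0.95 to 0.04 at T0. Afterwards it ran from -1.82 to 5.44, above every T0 library in 18 of 26 and below every one in 4. Another of the sgRNAs of Cyp4a30b was below -1. The other sgRNAs of Cyp3a44, apart from 1 of the lowest of all at -2.37, lay near 0, and the guides against that gene thus lay at both ends of the distribution. Over the 80 genes, 44 had no sgRNA below -1, 26 had 1, 8 had 2 and 2 had 3. The 2 genes with 3 were Cyp2c40 and Cyp4a31, and no Cyp gene had 4 or 5.

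At the level of genes, few Cyp genes were called in any organ. With limma and Benjamini-Hochberg adjustment over all genes, 7 of 800 gene-group pairs outside lymph nodes were depleted and 1 was enriched. In primary tumour no Cyp gene was depleted, and none reached an unadjusted p of 0.05, under IgG (14.3% of all genes depleted) or anti-PD-1 (14.4%). None was enriched there either, where 0% and 0.144% of all genes were. In lung, 3 of 80 were depleted under IgG (all genes, 16.2%) and 1 under anti-PD-1 (17.2%), and 1 and 0 were enriched (all genes, 1.68% and 0.962%).

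In liver, 1 of 80 Cyp genes was depleted under IgG (all genes, 13.1%) and 0 under anti-PD-1 (9.58%), with 0 enriched in both (0.192% and 0.289%). In peritoneal metastases 0 were depleted under IgG (13.7%) and under anti-PD-1 (15.3%), and 0 were enriched (0.0481% and 0.144%). In spleen 0 were depleted under IgG (13.6%) and 2 under anti-PD-1 (14%), and 0 were enriched (0.289% and 0.433%). At an unadjusted p under 0.05, limma counted 27 lower Cyp gene-group pairs of 800 (3.38%; all genes, 17.6%) and 7 higher ones (0.875%; all genes, 1.48%). The lower ones were 7 in lung under IgG and 4 under anti-PD-1, 4 in liver under IgG and 1 under anti-PD-1, 3 in each group of peritoneal metastases, and 0 in spleen under IgG and 5 under anti-PD-1. The higher ones were 4 in lung under IgG and 3 under anti-PD-1. Over all 10 groups, 72 of the 80 genes were called nowhere and none in more than 1 group, while 442 of all genes (21.3%) were depleted in at least 1 group and 174 in all 10.

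**Figure D3:**
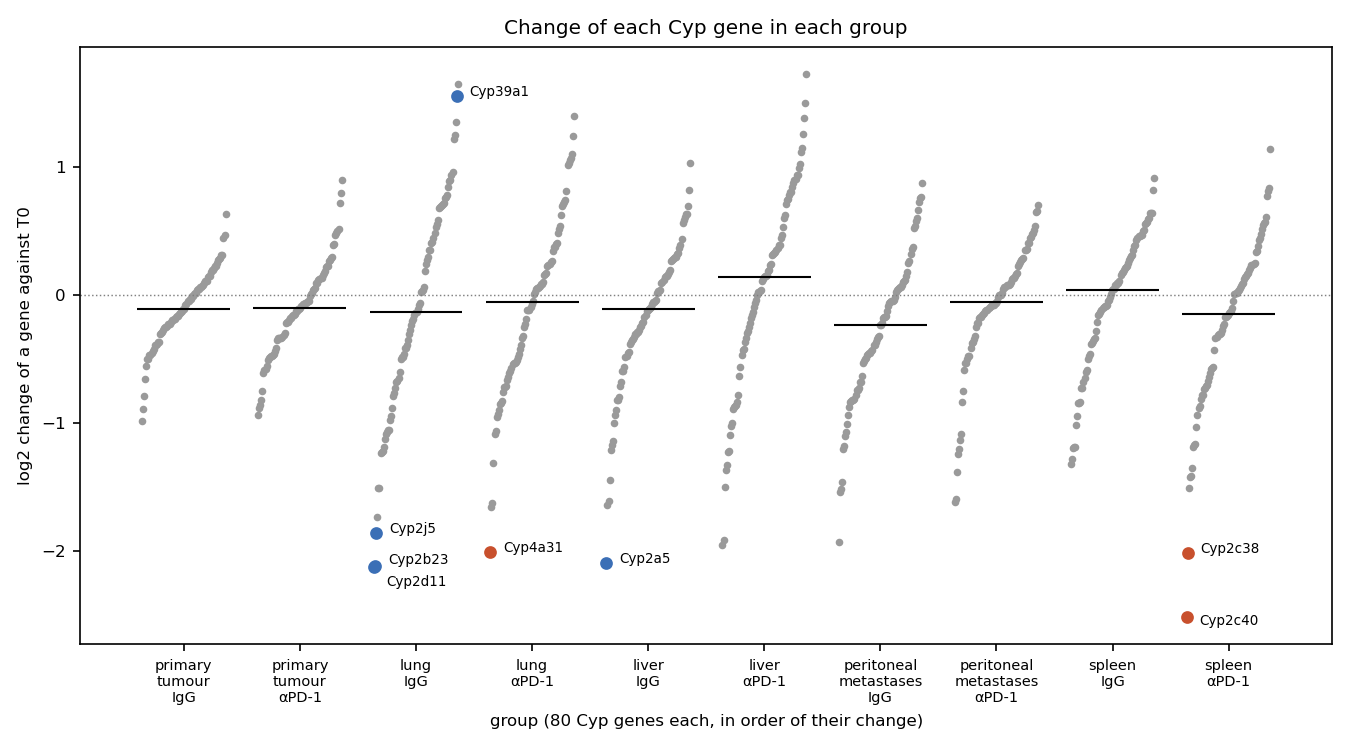
Log2 change against T0 of each of the 80 Cyp genes (points, in order of size) in the 10 groups outside lymph nodes, with the median of the 80 as a bar. The named, colouorange points are the 8 called by limma (blue for IgG, orange for anti-PD-1). They lie at -1.86 or lower, except Cyp39a1 at 1.56.

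Of the 8 calls, 4 came from lung under IgG, where on average 21.2% of the Cyp sgRNAs of a library were at their floor, beside 0.167% or less in primary tumour. The part of this in the calls was not tested. Cyp2b23, of a subfamily known for its induction by phenobarbital, was at -0.48, -0.50 and -0.32 at T0, relative to nontargeting sgRNAs. It was at -1.71, -2.82 and -3.14 in lung under IgG, below every T0 library. Its log2 change was -2.12 ± 0.69 (SE, n = 3; limma adjusted p = 0.0269).

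Cyp2d11, a relative of the main human debrisoquine hydroxylase, was at 0.07, 0.10 and 0.54 at T0 and at -1.77, -0.35 and -3.55 in lung under IgG. The 3 lung libraries were all lower than T0 and lay far apart. The change was -2.13 ± 0.72 (SE, n = 3; limma adjusted p = 0.0339), and it was -1.30 without replicate 3, with an adjusted p of 0.234 by limma.

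Cyp2j5, an arachidonic acid epoxygenase of kidney and liver, was at 0.31, 0.27 and 0.20 at T0 and at -1.53, -2.20 and -1.09 in lung under IgG. The groups did not overlap, and the change was -1.86 ± 0.60 (SE, n = 3; limma adjusted p = 0.0253). In lung under anti-PD-1 it was at 0.17, 1.28 and -0.19, with 2 libraries below and 1 above T0.

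Cyp39a1, which hydroxylates oxysterols on the way to bile acids, was the only Cyp gene called enriched. It was at 0.27, 0.46 and 0.41 at T0 and at 2.08, 1.68 and 2.05 in lung under IgG, the tightest set of libraries among the 8 calls. The change was 1.56 ± 0.52 (SE, n = 3; limma adjusted p = 0.0331). It was 0.37 with the nontargeting median as the centre and -0.38 with no centre (limma adjusted p = 0.556 and 0.551). With the mean of all sgRNAs as the centre it was 2.16. Its size and its call thus depended on the centring, and its sign turned only with no centre. Of its 5 sgRNAs, 4 had a mean change over the 10 groups between 0.55 and 0.97 and 1 was at -0.57.

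In lung under anti-PD-1 the single call was Cyp4a31, of the fatty acid omega-hydroxylase subfamily. It was at -0.20, -0.20 and 0.18 at T0 and at -3.55, -1.18 and -1.51 in these libraries. The change was -2.01 ± 0.69 (SE, n = 3; limma adjusted p = 0.0375). Without the first library it was -1.27, with an adjusted p of 0.251 by limma.

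In liver under IgG the call was Cyp2a5, a coumarin hydroxylase. It was at -0.25, -0.06 and 0.01 at T0 and at -0.89 and -3.51 in the 2 liver libraries. The change was -2.10 ± 0.72 (SE, n = 2; limma adjusted p = 0.0464) and rested on the second of these libraries (replicate 3), since it was -0.79 without it.

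In spleen under anti-PD-1, 2 Cyp2c genes were called, both of a subfamily that oxidises arachidonic acid as well as drugs. Cyp2c38 was at -0.23, -0.32 and 0.03 at T0 and at -1.52, -1.84 and -3.20 in spleen, with a change of -2.01 ± 0.61 (SE, n = 3; limma adjusted p = 0.0169). The change was -1.51 without replicate 3 of spleen under anti-PD-1 (limma adjusted p = 0.162). It was -0.84 with the median of the sgRNAs as the gene's value (limma adjusted p = 0.963). Cyp2c40 was at -0.23, -0.09 and 0.02 at T0 and at -0.75, -4.84 and -2.27 in spleen. Its change of -2.52 ± 0.78 (SE, n = 3; limma adjusted p = 0.0214) was the lowest of all 800 and was -1.41 without replicate 2, with an adjusted p of 0.441.

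All 8 calls were near the threshold, and they belonged to genes on 5 chromosomes of GRCm38: Cyp2b23 at chr7:26665227-26686430, Cyp2a5 at chr7:26835339-26843264, Cyp2d11 at chr15:82389154-82394022, Cyp2c38 at chr19:39389556-39463103, Cyp2c40 at chr19:39767073-39812814, Cyp4a31 at chr4:115563627-115579015, Cyp2j5 at chr4:96627432-96664171 and Cyp39a1 at chr17:43667372-43751431. Each lost it when all 41 libraries, lymph nodes included, shared 1 estimate of the spread, with adjusted p from 0.0540 to 0.342 by limma. In that fit 12.4% of all gene-group pairs were still depleted. Each was also lost without replicate 3 of T0 (adjusted p from 0.0677 to 0.129 by limma), with changes between -2.46 and -1.88 for the depleted genes and of 1.57 for Cyp39a1. Without replicate 1 of T0, only Cyp2c38 and Cyp2c40 stayed under the threshold (limma adjusted p = 0.0467 and 0.0493). Without replicate 2 of T0, only Cyp2c38 did (limma adjusted p = 0.0423). With the mean of all sgRNAs as the centre in place of the nontargeting mean, the 7 depleted calls were lost and 17 Cyp pairs were enriched (2.12%; all genes, 2.53%), and with the nontargeting median 37 were depleted (4.62%; all genes, 17.6%) and none enriched.

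**Figure D4:**
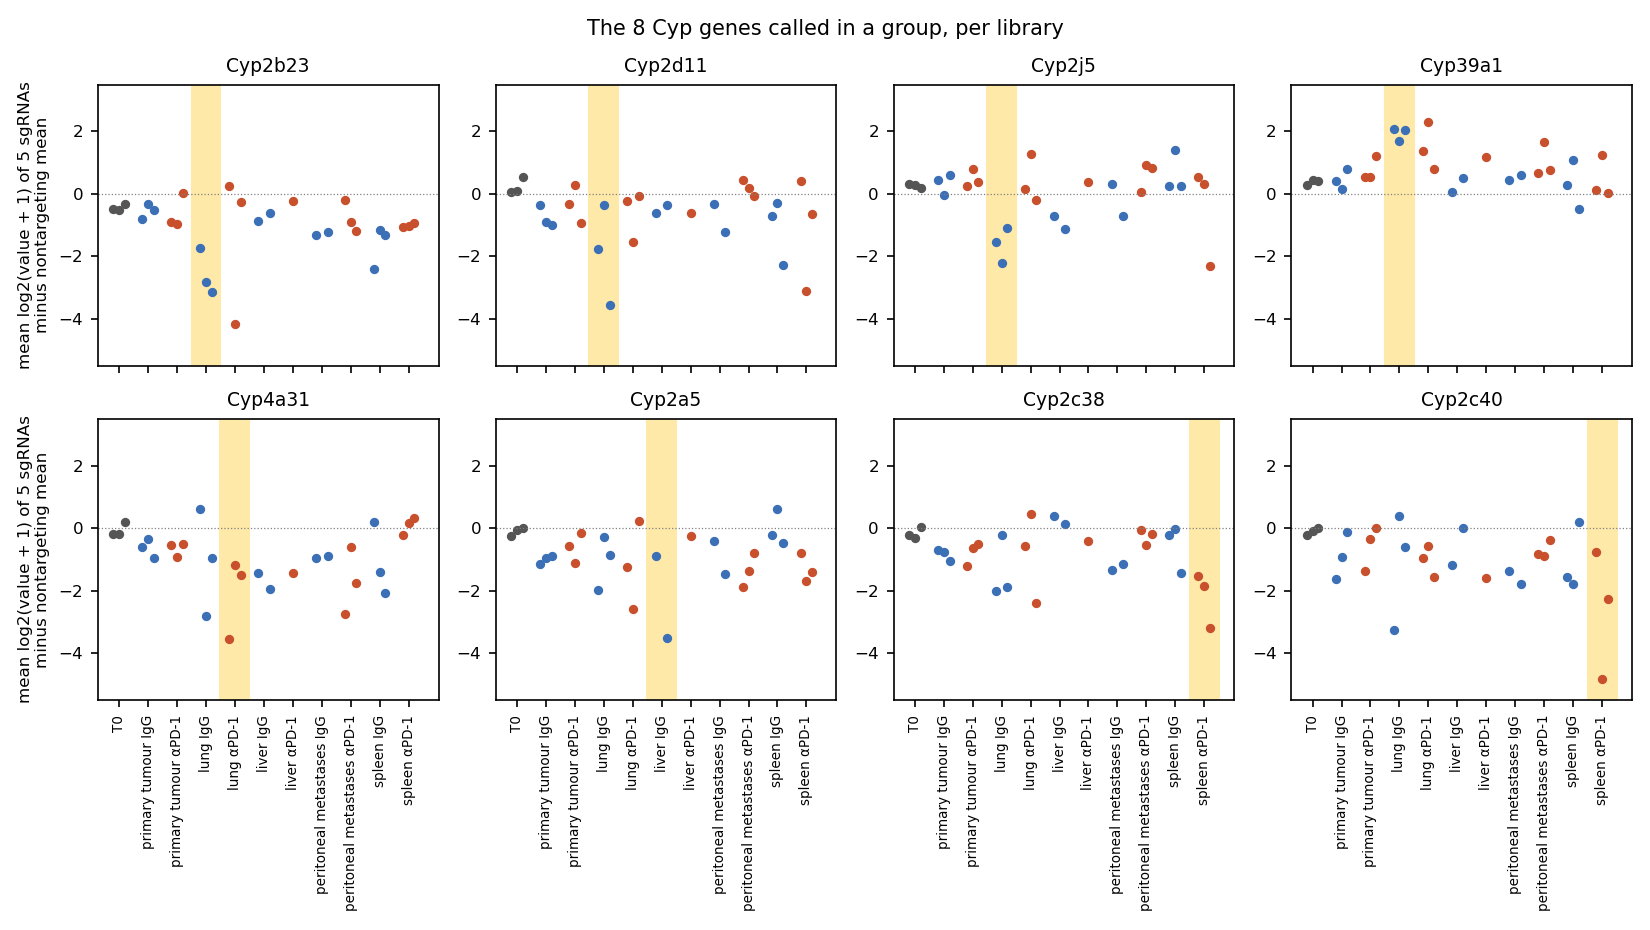
Mean log2(value + 1) of the 5 sgRNAs of a gene minus the nontargeting mean, in each library (points), for the 8 Cyp genes called in a group, which is shaded. T0 is grey, IgG blue and anti-PD-1 orange. Within the shaded groups the libraries of Cyp39a1 lie between 1.68 and 2.08, and those of Cyp2c40 between -4.84 and -0.75.

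Averaged over the 10 groups, the 80 Cyp genes had a median change of -0.08, with quartiles of -0.34 and 0.08. The median over all genes was -0.14, with quartiles of -0.55 and 0.13. These signs are relative to the nontargeting mean: the median of all genes was -0.55 with the nontargeting median as the centre, 0.52 with the mean of all sgRNAs and -1.14 with no centre, and the Cyp median moved with it, to -0.49, 0.58 and -1.08. Within 0.5 of T0 in either direction lay 68 of the 80 Cyp genes (85%) and 68.9% of all genes. Below -0.5 lay 10 Cyp genes (12.5%), against 27.0% of all genes, and above 0.5 lay 2 (2.5%), against 4.09%. The lowest Cyp gene, at -1.13, was the 362nd from the bottom of all genes.

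The 6 lowest genes were Cyp2d10 (-1.13), Cyp2c40 (-1.08), Cyp4a31 (-1.04), Cyp2d11 (-0.98), Cyp2a5 (-0.89) and Cyp2c37 (-0.73). Cyp2d10 was low in the most libraries, since it was below every T0 library in 24 of 26. It was below 0 in 10 of 10 groups, as were Cyp2c40, Cyp2d11 and Cyp3a16, the last with a mean change of only -0.27. Cyp2d10 was picked by its mean over these same groups, which all share the T0 libraries, so their agreement is no independent support. It ran from -0.37 to 0.03 at T0 and from -3.13 to -0.02 afterwards, with a median of -1.34. It passed the threshold in no group, and its lowest adjusted p by limma was 0.0556, in peritoneal metastases under IgG (-1.93 ± 0.68 (SE, n = 2)). Its loss was uneven over its guides, since 2 of the 5 sgRNAs were at -3.00 and -1.97 and the others between -0.42 and 0.12. Cyp2c40 ran from -0.23 to 0.02 at T0 and from -4.84 to 0.40 afterwards, with a median of -0.94, and Cyp4a31 from -0.20 to 0.18 and from -3.55 to 0.60, with a median of -0.94. Cyp2d11 had a median of -0.48 and Cyp2a5 of -0.89, and their highest libraries were at 0.46 and 0.62. In these 5 genes (Cyp2d10 included), 21 to 24 of 26 libraries were below every T0 library.

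In Cyp2c37, an arachidonic acid hydroxylase, all 5 sgRNAs were below 0, from -1.23 to -0.30. All 5 were also below 0 in Cyp2j12, whose mean change was -0.37 and which was not among the 6 lowest genes.

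The 6 highest genes were Cyp2b19 (0.62), Cyp2a12 (0.59), Cyp2c39 (0.48), Cyp2j9 (0.47), Cyp39a1 (0.46) and Cyp4a29 (0.43). Cyp2b19, an epoxygenase of skin keratinocytes, ran from 0.08 to 0.43 at T0 and from -0.56 to 3.02 afterwards, with a median of 0.72 and 19 of 26 libraries above every T0 library. All 5 of its sgRNAs were above 0, from 0.26 to 1.05, as were all 5 of Cyp2a12, a steroid hydroxylase of liver, from 0.03 to 1.27. The same held for all 5 of Cyp24a1 and of Cyp2r1, which were not among the 6 highest, so it does not set these genes apart. Cyp39a1 ran from -0.49 to 2.29 with a median of 0.72, and Cyp4a29 from -1.06 to 2.61 with a median of 1.05, so that single libraries fell on either side of T0. Cyp2j9 was the only one of the 6 that was above 0 in every group, from 0.08 to 1.03.

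By role, 40 genes belonged to the drug and xenobiotic families, and their mean changes had a median of -0.08 and ran from -1.13 (Cyp2d10) to 0.62 (Cyp2b19). They held 8 of the 10 genes below -0.5 and both above 0.5. The 20 genes of arachidonate and fatty acid oxidation had a median of -0.07, from -1.04 (Cyp4a31) to 0.47 (Cyp2j9). The 6 genes of steroid hormone synthesis had a median of -0.08, and the lowest was Cyp11a1 (-0.51), the side-chain cleavage enzyme that makes pregnenolone from cholesterol.

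The 6 genes of bile acid synthesis and sterol breakdown had a median of -0.07, from -0.49 for the sterol hydroxylase gene Cyp27a1 to 0.46 for Cyp39a1. The 6 genes of vitamin D and retinoic acid metabolism had a median of 0.07. They ran from -0.44 for Cyp27b1, which activates vitamin D, to 0.32 for Cyp24a1, which breaks it down. No role group had a median further than 0.1 from 0, except the 2 genes outside these roles, Cyp2u1 and Cyp2s1, both at -0.33.

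By subfamily, 8 of 8 Cyp2d genes and 6 of 6 Cyp3a genes were below 0, beside 62.8% of all genes. The Cyp2d genes had a median of -0.34, from -1.13 for Cyp2d10 to -0.02 for Cyp2d22. The Cyp3a genes, whose products oxidise a wide range of drugs, were close together, from -0.39 for Cyp3a13 to -0.08 for Cyp3a11. The 13 Cyp2c genes ran from -1.08 to 0.48 with a median of -0.09. The 8 Cyp4a genes ran from -1.04 to 0.43 with a median of 0.02. These families were compared by description only, and members of 1 family can share target sites.

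That sharing was counted on GRCm38 for each gene as the percent of 20-base sites with an NGG in its coding exons that occur more than once in the genome. The median was 26.2% for Cyp genes and 0% for all library genes, and 45 of 80 Cyp genes were at 20% or more, against 325 of 2042 library genes (15.9%). Among the Cyp genes at 20% or more, 9 of 45 had a mean change below -0.5, and among those under 20%, 1 of 35 (Cyp11a1). Of the other library genes, 140 of 280 (50%) were below -0.5 at 20% or more and 400 of 1682 (23.8%) under 20%. The 280 reached down to -6.63, the value of the lowest ribosomal protein gene, so genes that every dividing cell needs are among them. The part of such genes in this difference was not tested. Of the 6 lowest genes, Cyp2c40 had 93.3% repeated sites, Cyp2a5 79.7%, Cyp2d11 71.6%, Cyp2d10 69.5%, Cyp2c37 67.3% and Cyp4a31 55.7%. Within clusters, Cyp2d10 and Cyp2d11 shared 105 sites, Cyp2a5 and Cyp2a4 138, Cyp2c40 and Cyp2c68 101, Cyp4a31 and Cyp4a32 84, and Cyp2c38 and Cyp2c39 61, although Cyp4a32 and Cyp2c39 were above 0. The middle of the 2 classes did not follow the tail, with medians of -0.08 at 20% or more and -0.12 under 20%.

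Genes with repeated sites were also found at the upper end. Cyp2a12 had 56.6%, Cyp4a29 40.7%, Cyp2c39 35.2% and Cyp2b19 28.2%, and both genes above 0.5 were at 20% or more. Cyp3a41a, with every site repeated (100%), was at -0.17. Over the 80 genes the correlation of the mean change with the percent of repeated sites was -0.22 (Pearson) and -0.12 (Spearman), as a description, since genes of 1 cluster share sites and all genes share the same libraries. Which sites the screen's sgRNAs used was not examined, so the number of cuts per guide is unknown and its part in these changes was not tested.

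**Figure D5:**
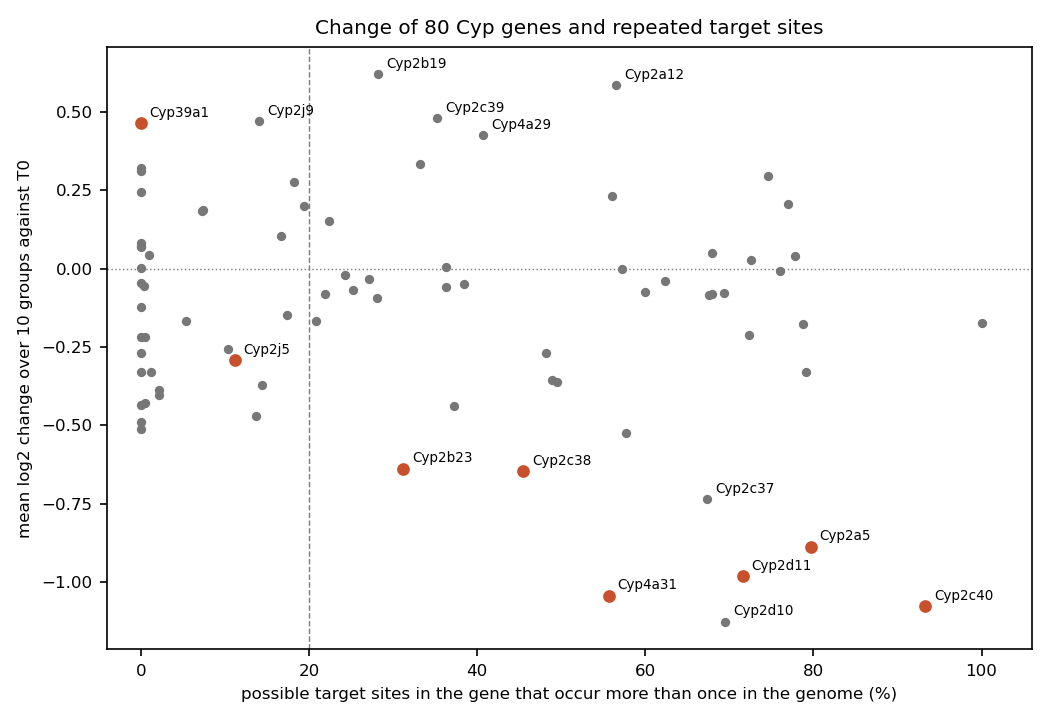
Mean log2 change over 10 groups against T0 of each of the 80 Cyp genes, by the percent of its possible target sites that occur more than once in GRCm38. The dashed line is at 20%, and orange points are the 8 genes called in a group. Of the 10 genes below -0.5, 9 lie at 20% or more, and so do both genes above 0.5.

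The 4 Cyp genes that the study carried into its CROP-seq library were chosen by the study on these samples, so their direction here is no independent evidence. Their mean changes were 0.59 for Cyp2a12, 0.33 for Cyp4a30b, 0.30 for Cyp4a32 and 0.18 for Cyp2j13. Cyp2a12 ran from -0.32 to 3.40 over the 26 libraries outside lymph nodes with a median of 1.34, beside 0.65 to 0.93 at T0. Cyp2j13, of the arachidonic acid epoxygenase subfamily, ran from -3.38 to 2.19. In the only anti-PD-1 library of liver its change was 1.73 ± 1.13 (SE; limma adjusted p = 0.643). The study took into that library the genes that both of its methods had called enriched in some organ and treatment, lymph nodes included. By limma here, none of the 4 was called in any of the 10 groups. That is another test than the study's, on groups without the lymph nodes.

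The library held 15 Cyp genes of a list drawn up from general knowledge of P450 genes with uses outside liver. The list is not complete, since some of the other Cyp genes are also used in other tissues. The median change of the 15 was -0.08. They ran from -0.51 for Cyp11a1 to 0.46 for Cyp39a1, with Cyp27a1 (-0.49), Cyp27b1 (-0.44), the brain cholesterol hydroxylase gene Cyp46a1 (-0.43), Cyp2u1 (-0.33), Cyp2s1 (-0.33) and the retinoic acid hydroxylase gene Cyp26b1 (-0.27) on the lower side. Near 0 were Cyp4f13 (-0.08), Cyp1b1 (-0.06), Cyp26a1 (0.07) and Cyp7b1 (0.07), an oxysterol hydroxylase. On the upper side were Cyp4f18 (0.19), which inactivates leukotriene B4 in myeloid cells, Cyp1a1 (0.20), a target of the aryl hydrocarbon receptor, and Cyp2r1 (0.31), a vitamin D hydroxylase. Of the 15, 1 was called in a group (Cyp39a1). Over all genes, 21.3% were depleted and 2.6% enriched in at least 1 group outside lymph nodes.

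Single guides against these genes were lost in places. A Cyp1a1 sgRNA was depleted in lung under IgG (-4.80 ± 1.03 (SE), limma adjusted p = 0.00412) although the gene's mean change was 0.20. One Cyp26b1 sgRNA was depleted in 2 groups, lung under anti-PD-1 (-4.90 ± 1.43 (SE), limma adjusted p = 0.0327) and peritoneal metastases under IgG (-6.31 ± 1.60 (SE), limma adjusted p = 0.0180), and another in lung under IgG (-3.84 ± 1.01 (SE), limma adjusted p = 0.0173). These values were chosen as examples after they were seen.

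No Cyp gene was called different between anti-PD-1 and IgG. Averaged over the 5 organs outside lymph nodes, 0 of 80 passed by limma with adjustment over all genes, against 1.35% of all genes, and 8 had an unadjusted p under 0.05 (all genes, 15.8%). The lowest adjusted p was 0.0955, for Cyp4a14, a fatty acid hydroxylase, at 0.91 ± 0.27 (SE) higher under anti-PD-1. No Cyp gene passed the test of whether the difference between treatments varied between organs (0% of all genes). At an unadjusted p under 0.05 were 3 of the 80 Cyp genes (all genes, 4.96%), Cyp19a1, Cyp2j5 and Cyp2s1, all with an adjusted p of 0.805. For Cyp2j5 the anti-PD-1 minus IgG difference was 2.02 in lung, where it had been depleted under IgG, and -1.12 in spleen.

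Nor did any Cyp gene pass the test of a difference between organs, by limma's moderated F-test (0.433% of all genes), and 2 of 80 had an unadjusted p under 0.05 (all genes, 7.80%). For Cyp2c55 (adjusted p = 0.318 by limma) the change averaged over treatments was -1.18 in spleen and between -0.28 and 0.46 elsewhere. For Cyp39a1 (adjusted p = 0.422 by limma) it was 1.33 in lung and between 0.00 and 0.40 elsewhere. Its enrichment in lung was thus not shown to differ from its level in the other organs.

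In the lymph nodes, no gene of any kind was called by limma, Cyp or other, with 0% of all genes depleted or enriched in each of the 4 groups. The share of Cyp sgRNAs at their floor was 66.5% and 65.1% in draining nodes and 73.8% and 75.3% in nondraining nodes, under IgG and anti-PD-1. It was 67.1%, 68.8%, 76.0% and 76.7% for nontargeting sgRNAs. The Cyp mean changed by -0.22 ± 0.20 and 0.02 ± 0.16 in draining nodes and by -0.05 ± 0.09 and -0.13 ± 0.39 in nondraining nodes (SD, n = 3 each). At an unadjusted p under 0.05 there were 5 lower and 5 higher Cyp gene-group pairs of 320 (1.56% each), against 6.36% lower and 2.27% higher over all genes. When all 41 libraries shared 1 fit, 2 Cyp genes were enriched in draining nodes under IgG, Cyp24a1 (3.51, limma adjusted p = 0.0296) and Cyp7b1 (3.08, limma adjusted p = 0.0314), and Cyp2a12 was under anti-PD-1 (3.87, limma adjusted p = 0.0166). Over all genes, 19 (0.914%) and 18 (0.866%) were enriched in these groups in that fit.

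In the fit of T0 and the lymph nodes, Cyp2a12 in draining nodes under anti-PD-1 was at 3.42, 6.44 and 4.04 against 0.65 to 0.93 at T0. All 3 libraries were above T0, with a change of 3.87 ± 1.14 (SE, n = 3; limma adjusted p = 0.302). In nondraining nodes under the same treatment the gene was at -0.03, 0.90 and 0.39.

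Of the electron donors and neighbours of P450 enzymes on the list used here, 6 were in the library, and 1 of their 60 gene-group pairs was depleted (1.67%), against 14.1% of the pairs of all genes. Cyp51, the sterol demethylase that every cholesterol-making cell uses, had a mean change of -0.24 and was called in no group. The cytochrome b5 reductase genes Cyb5r1, Cyb5r2, Cyb5r3 and Cyb5r4 were at -0.27, 0.25, -0.18 and -0.21, and Cyb5rl was at 0.92. The depleted pair was Cyb5r4 in lung under anti-PD-1 (-2.05 ± 0.73 (SE, n = 3), limma adjusted p = 0.0450), where 2 of 3 libraries were below T0 and 1 above.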

How the data were processed

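Donor T cells were sorted by CD90.1, and the sgRNA inserts in their genomic DNA were amplified and sequenced. The deposited values are a signal per sgRNA and library. Per the methods, the authors ran MAGeCK, scaled each library by its 250 nontargeting sgRNAs and applied ComBat for batches described as organs, with settings not given in the sources used here. In the values, an sgRNA's lowest value recurs in libraries of 1 replicate number and different organs, so which variable was corrected is unsettled. Since the values are no longer whole, limma on the log2 scale took the place of a count model, and depth is unknown. Of 43 samples, 2 (peritoneal metastases under IgG, liver under anti-PD-1) have no values.

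Analysis started from log2(value + 1), centred on the nontargeting mean of the library and averaged over the 5 sgRNAs of a gene. limma 3.58.1 (R 4.3.3) fitted T0 with the 10 groups outside lymph nodes (29 libraries), and T0 with the 4 lymph node groups, with 1 mean per group and a Benjamini-Hochberg threshold of 0.05. Liver under anti-PD-1 has 1 library, which was assumed to vary like the others. The gene tests against T0 in the 10 groups outside lymph nodes were checked on simulated data, drawn with normal noise and without floor values. The other tests were not checked in this way.

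Libraries are labelled as biological replicates, without saying whether mice were pooled. The study lists more mice per treatment than there are libraries per organ. The p-values thus measure the spread between these libraries. Members and lists were chosen with earlier results of these data known. Named genes are those called in a group, the 6 highest and 6 lowest means, the 4 CROP-seq genes and the 15 listed as used outside liver, with the 5 highest and 5 lowest sgRNAs. Alternatives were another pseudocount, gene summary, centring, filter, sample set and replicate block, and leaving out each library. Target sites were counted with Python 3.11.15 on GRCm38 (RefSeq), where 2072 library genes were matched by symbol. The sources used here name no build for this screen.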

Additional observations from a re-analysis of the deposited data

How the results depend on the processing

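The mean difference between Cyp and nontargeting sgRNAs depended on how the nontargeting reference was taken. With the Cyp mean set against the nontargeting median, which compares unlike summaries, it was -0.22 and -0.19 in primary tumour (IgG, then anti-PD-1), -1.32 and -0.92 in lung, -0.39 and -0.22 in liver, -0.58 and -0.45 in peritoneal metastases, -0.40 and -0.71 in spleen, 2.12 and 2.15 in draining nodes and 1.59 and 1.66 in nondraining nodes. With the upper quartile of each of the 2 sgRNA sets in place of its mean, the difference moved by more than the replicate SD in 4 groups, all under IgG. These were primary tumour (-0.16), liver (-0.0956), spleen (-0.12) and nondraining nodes (-0.14). With the same setting it was 0.21 in liver under anti-PD-1, which has no replicate SD. Without the lowest 10% of sgRNAs at T0 it was -0.17 in primary tumour and -0.0805 in liver under anti-PD-1 and 0.0427 in nondraining nodes under IgG. As a difference of medians it was -0.16 and -0.13 in lung, -0.0378 in primary tumour and -0.17 in spleen under anti-PD-1, 0.50 and 0.62 in draining nodes and -0.14 in nondraining nodes under IgG. The sign thus turned in liver under anti-PD-1 and in lymph nodes. The cause was not tested.

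Counts of called Cyp genes changed as follows. With T0 and a single group in the fit, 3 genes were depleted in primary tumour under IgG and 2 enriched under anti-PD-1, 2 were enriched in lung under IgG and 0 depleted under anti-PD-1, 5 were depleted in liver under IgG, and 18 were depleted and 23 enriched in its single anti-PD-1 library, a comparison in which only T0 gives a spread and which therefore tests nothing. In the same fits 9 were depleted and 1 enriched in peritoneal metastases under IgG, 2 depleted there under anti-PD-1, 1 in spleen under anti-PD-1, and 1 was depleted and 1 enriched in draining nodes under IgG. Relative to the nontargeting median, 26 were depleted and 0 enriched in lung under IgG, 5 depleted under anti-PD-1, 0 in liver under IgG, and 1 and 2 in peritoneal metastases. Relative to the mean of all sgRNAs, 0 were depleted and 7 enriched in lung under IgG, 0 and 8 under anti-PD-1, 0 depleted in liver under IgG, and 0 depleted and 2 enriched in spleen under anti-PD-1. With no centring, 54 were depleted and 0 enriched in lung under IgG, 29 depleted under anti-PD-1, 10 and 4 in liver, 3 and 5 in peritoneal metastases, 1 and 12 in spleen, 78 and 78 in draining nodes and 80 and 80 in nondraining nodes, and Cyp39a1 in lung under IgG turned to -0.38. With all libraries in 1 fit, 0 genes were called in lung, liver or spleen, and 2 and 1 were enriched in draining nodes. With log2(value + 10), 0 were enriched in lung under IgG and 0 depleted under anti-PD-1. With the median of the sgRNAs, 9 were enriched in lung under IgG, 0 depleted and 1 enriched under anti-PD-1, and 0 depleted in liver under IgG and spleen under anti-PD-1. Without the lowest 10% of sgRNAs at T0, 0 were enriched in lung under IgG, 2 depleted under anti-PD-1, 1 in peritoneal metastases under IgG and 1 in spleen under anti-PD-1. The count of genes that differed between organs was 1 relative to the nontargeting median and 8 with no centring.

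Counts of called Cyp sgRNAs changed with T0 and a single group in the fit to 7 depleted and 2 enriched in primary tumour under IgG, 4 depleted under anti-PD-1, 1 enriched in lung under IgG, 4 and 1 under anti-PD-1, 8 and 6 in liver under IgG, 82 and 107 in the single library under anti-PD-1 (again with the spread of T0 alone), 2 enriched in peritoneal metastases under IgG, 1 depleted there under anti-PD-1 and 1 in spleen under IgG. Relative to the nontargeting median, 31 were depleted and 0 enriched in lung under IgG, 11 depleted under anti-PD-1 and 5 in spleen under anti-PD-1. With all libraries in 1 fit, 1 was depleted and 0 enriched in lung under IgG and 1 depleted in spleen under anti-PD-1. With log2(value + 10), 0 were enriched in lung under IgG. Over all groups in the fit, the depleted shares of Cyp, nontargeting and all sgRNAs were 1.3%, 0.92% and 5.92% relative to the nontargeting median. They were 0.125%, 0.0286% and 2.70% with all libraries in 1 fit.

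Leaving out 1 library at a time, depleted genes ran from 0 to 5 and enriched genes from 0 to 3 in lung under IgG. Depleted genes ran from 0 to 2 in lung under anti-PD-1, 0 to 1 in liver and in peritoneal metastases under IgG and 0 to 3 in spleen under anti-PD-1. Genes that differed between anti-PD-1 and IgG ran from 0 to 2, beside 10 to 45 over all genes. For the other ranges no share over all genes or sgRNAs is given here. Depleted sgRNAs ran from 1 to 25 and enriched ones from 0 to 15 in lung under IgG, from 1 to 15 and 0 to 3 under anti-PD-1, and depleted ones from 0 to 1 in liver under IgG, 1 to 3 in peritoneal metastases under IgG, 0 to 1 there under anti-PD-1, 0 to 10 in spleen under anti-PD-1 and 0 to 4 there under IgG.

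Whether libraries with the same replicate number were paired was not settled. Over 84 same-number pairs the correlation of deviations from group means ran from -0.36 to 0.27, with 27 over 0.1. The median was -0.0294 over these pairs and 0.0059 over 168 pairs with different numbers. Of 24 libraries, 19 were closest to one with their own number. With the replicate number as a block, 7 Cyp pairs were depleted and 1 enriched, as without it.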
